A study of Arabidopsis thaliana with 12 samples.

Results

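PSAN, PSBY, PSBW and LHB1B2 encode subunits of the photosystems of Arabidopsis thaliana and a protein of the main light-harvesting antenna. They were picked by name as genes of this machinery that each have a probe listing no other gene, with earlier results of these data known. PSAN is locus AT5G64040 (probe 85), PSBY is AT1G67740 (probe 2030), PSBW is AT2G30570 (probe 3529) and LHB1B2, also called LHCB1.5, is AT2G34420 (probe 2665). They are 4 of the 692 probes that list 1 gene, in a table of 3439 probes. No other probe of the table lists any of the 4.

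In the thylakoid membrane of the chloroplast, photosystem II uses light to take electrons from water, and photosystem I uses light to pass them on towards NADP. Both hold a core that is partly made in the plastid and partly encoded in the nucleus. All 4 proteins treated here are encoded in the nucleus. Around the cores lie antenna proteins that bind chlorophyll, of which the trimers named LHCII are the most abundant. Genes of the LHCB family are known for transcripts that depend on light and on the time of day.

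RNA was taken from wild-type plants (WT, Columbia 0), 6 samples after 1 h of light that ended the night and 6 samples at the end of an overnight dark period. All plants were of the same accession and none carried a mutation or transgene by the labels. Tissue, age and hour of harvest are not given in the labels, so that light and clock time cannot be told apart. Of 9 markers of leaf mesophyll, guard cells and phloem, 0 had a probe of their own, so the tissue was not checked.

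Each array gave 1 intensity per probe on a linear scale that ends at 100. Between 11.7 and 15.7% of the values of an array were 0, and 1 to 5 spots of an array lay at the top. Columns with replicate numbers 1 and 2, 3 and 4, and 5 and 6 of a group were partly alike and may be repeat measurements. Within these pairs the consensus correlation over all probes tested was 0.219, with the difference between light and dark removed. The tests of the 4 genes are therefore also given on 3 pair means per group. The labels do not say that samples came from separate plants, so p-values cover the spread of these 12 columns, which may be technical. In such whole samples, fewer cells of a type and less RNA per cell cannot be told apart.

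Of the 4 transcripts, 3 were higher after 1 h of light and PSBW was lower. PSAN, LHB1B2 and PSBY were 2.50, 2.33 and 1.87 times their dark level, and PSBW was 0.435 times its dark level. All 4 passed the test, limma across all probes with a Benjamini-Hochberg adjusted p under 0.05. So did 40.4% of the 2966 probes tested (19.9% higher and 20.5% lower in light), 42.6% of those with 1 gene, and 63.9% of the brightest 25% of probes, to which these 4 belong. That 4 of 4 passed is therefore not a result that marks these genes out. In the brightest 25% of probes 29.9% were higher in light and 34.0% lower. Light and dark values did not overlap for any of the 4 after quantile normalization, and the same held for 26.6% of all probes tested and 54.9% of the brightest 25%.

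**Figure D1:**
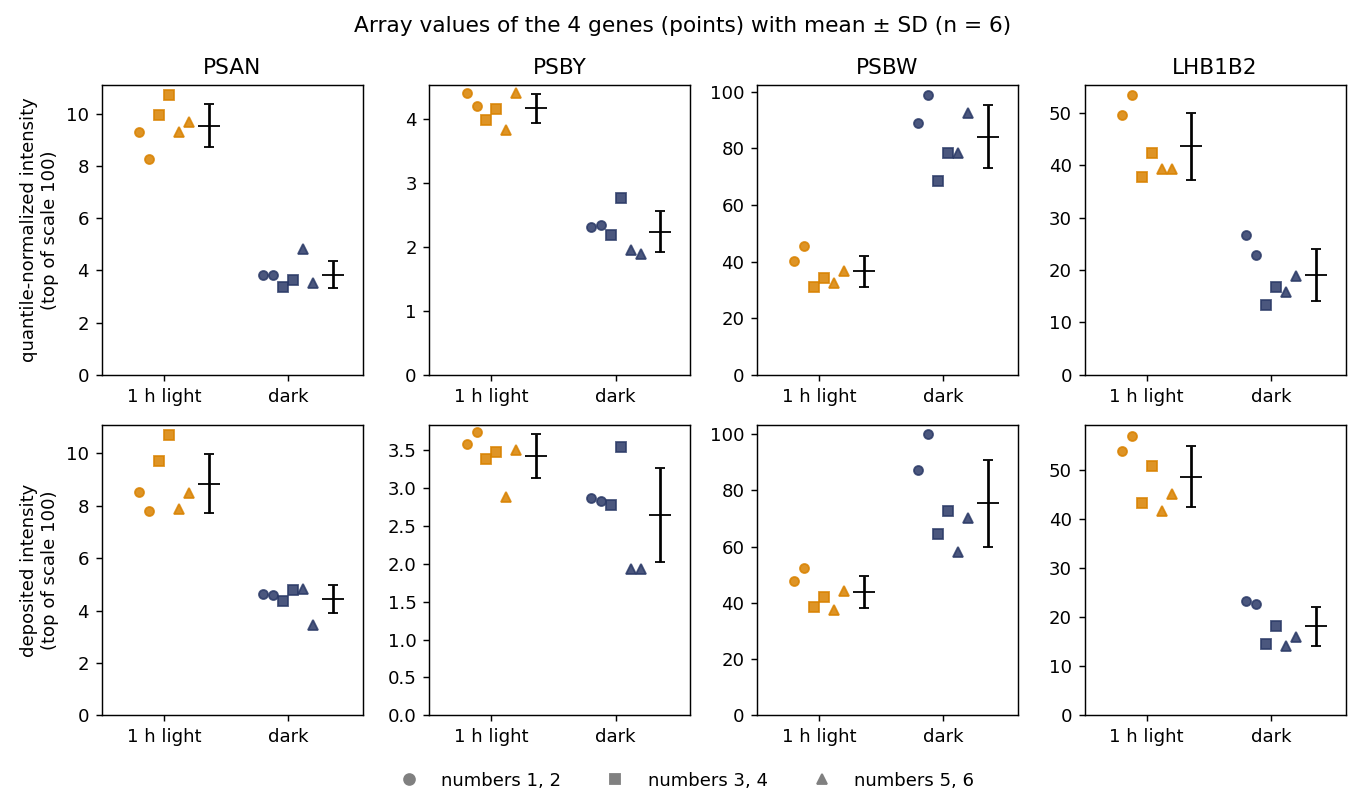
Intensity of PSAN, PSBY, PSBW and LHB1B2 in each of 6 samples after 1 h of light and 6 dark samples, quantile normalized in the upper row and as deposited in the lower row. Points are arrays, symbols mark the consecutive replicate numbers, and bars are mean ± SD (n = 6). Only PSBY as deposited has overlapping groups, with 2.89 to 3.74 in light and 1.93 to 3.55 in the dark.

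PSAN is the small lumenal subunit N of photosystem I, close to where plastocyanin docks to deliver electrons. Its quantile-normalized intensity had a lowest, median and highest value of 8.27, 9.49 and 10.7 in light, against 3.37, 3.73 and 4.82 in the dark. The lowest light array was thus well above the highest dark array, which was dark replicate 5. The change was 1.32 on the log2 scale (SE 0.11, limma adjusted p = 1.6e-06), with a 95% interval of 2.12 to 2.94 for the fold. The deposited intensities were 7.81, 8.50 and 10.7 in light and 3.43, 4.61 and 4.84 in the dark, and the groups stayed apart there as well. Within each replicate number, the deposited light value was 1.63 to 2.47 times the dark value. Light was higher in 6 of 6 numbers, a count that the lack of overlap already fixed. On the 3 pair means per group PSAN passed (limma adjusted p = 0.0029), as did 27.4% of all probes tested.

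PSBY is a small membrane protein at the edge of photosystem II, near cytochrome b559, and in Arabidopsis its nuclear gene yields a pair of mature polypeptides from 1 precursor. Its normalized intensity had a lowest, median and highest value of 3.83, 4.18 and 4.40 in light, against 1.89, 2.25 and 2.76 in the dark. The light arrays lay close together, with an SD of 0.080 on the log2 scale against 0.20 in the dark. The log2 change was 0.90 (SE 0.11, limma adjusted p = 3.2e-05), a fold of 1.87 with a 95% interval of 1.59 to 2.20.

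The deposited intensities of PSBY did not separate the groups. They were 2.89, 3.49 and 3.74 in light and 1.93, 2.80 and 3.55 in the dark, and dark replicate 4, at 3.55, exceeded 4 of the 6 light arrays. By replicate number the deposited light value was 0.980 to 1.82 times the dark value, above 1 in 5 of 6 numbers. The log2 change on the deposited values was 0.40 and did not pass (limma adjusted p = 0.063). With arrays centred on their medians it was 0.52 (adjusted p = 0.0068), and this call was lost on pair means (adjusted p = 0.085). In the dark, deposited PSBY was lowest in replicates 5 and 6, both at 1.93, while the other 4 dark arrays lay between 2.77 and 3.55.

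PSBW is a small subunit of photosystem II that lies between the core and the antenna and is known to help hold their supercomplexes together. It was the 1 gene of the 4 that was lower in light. Its normalized intensity had a lowest, median and highest value of 31.0, 35.4 and 45.6 in light, against 68.4, 83.5 and 99.0 in the dark. Every light array was below every dark array. The log2 change was -1.20 (SE 0.13, limma adjusted p = 1.5e-05), with a 95% interval of 0.359 to 0.528 for the fold.

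The deposited intensities of PSBW were 37.6, 43.1 and 52.5 in light and 58.1, 71.2 and 100 in the dark. Dark replicate 2 was at the top of the scale, so that its true level may be higher than the value given. By replicate number the deposited light value was 0.525 to 0.646 times the dark value, lower in 6 of 6 numbers. The deposited ranges of the groups did not overlap, which already fixed that count. The size of the change rested on the scaling. It was -0.77 as deposited (adjusted p = 0.0015), -0.66 with arrays centred on the median (adjusted p = 0.0099), and -0.40 with arrays centred on the 75th percentile, where it did not pass (limma adjusted p = 0.066).

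LHB1B2 encodes a chlorophyll a/b-binding protein of the LHCB1 type, which with LHCB2 and LHCB3 builds the LHCII trimers. Its normalized intensity had a lowest, median and highest value of 37.8, 40.7 and 53.3 in light, against 13.4, 17.9 and 26.7 in the dark. The groups did not overlap, and the highest dark array was dark replicate 1. The log2 change was 1.22 (SE 0.17, limma adjusted p = 1.5e-04), with a 95% interval of 1.79 to 3.02 for the fold. Deposited values were 41.7, 48.0 and 57.0 in light and 14.1, 17.1 and 23.2 in the dark, and the log2 change on them was 1.44. By replicate number the deposited ratio was 2.32 to 2.97, higher in light in 6 of 6 numbers, which the separate ranges already fixed. Genes of the LHCB1 type are close to each other in sequence, so this probe may also bind their transcripts, which was not tested.

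Ranks within an array need no scaling between arrays, and quantile normalization sets each value from its rank. Counted from the brightest of the 3439 spots, PSAN was at rank 47 to 60 in light and 90 to 122 in the dark. PSBY was at rank 97 to 108 in light and 147 to 197 in the dark. LHB1B2 was at rank 9 to 16 in light and 23 to 39 in the dark. PSBW was at rank 11 to 20 in light and 1 to 7 in the dark. All 4 genes therefore moved in rank without overlap between the groups, also PSBY, whose deposited values overlapped. This restates the lack of overlap after quantile normalization, which held for 26.6% of all probes tested and 54.9% of the brightest 25%.

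**Figure D2:**
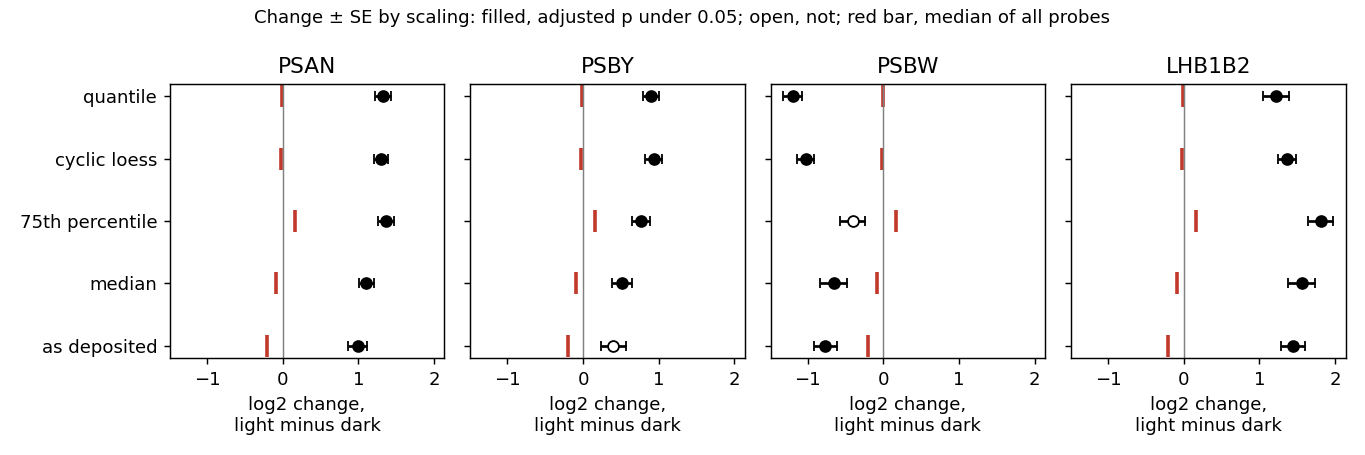
Log2 change, light minus dark, with its SE, for each gene under 5 ways of scaling the arrays. Filled points passed limma at an adjusted p under 0.05, open points did not, and red bars give the median change of all probes. PSAN (0.99 to 1.36) and LHB1B2 (1.22 to 1.81) passed under all 5, PSBY missed as deposited (0.40) and PSBW missed at the 75th percentile (-0.40).

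Direction was kept by each of the 4 genes under all 5 scalings, but the calls were not. PSAN and LHB1B2 passed under quantile normalization, cyclic loess, centring on the median, centring on the 75th percentile and on deposited values. Of all probes tested 28.1% did so in 1 direction, and of the brightest 25% 48.1%. The median log2 change of all probes was -0.21 as deposited and 0.16 with centring on the 75th percentile, against -0.01 after quantile normalization. Set against these medians, PSBY lay above and PSBW below the typical probe under every scaling.

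Ratios between probes of 1 array are the same under any scaling that multiplies the array by 1 factor, though not under quantile normalization or loess, so the unequal change of the 4 genes was also described in deposited values. Since brightness depends on the probe, only the difference between conditions is given meaning here, and no test was made because the genes were chosen with their changes known. The ratio of PSBW to LHB1B2 had a lowest, median and highest value of 0.831, 0.893 and 0.975 in light, against 3.76, 4.25 and 4.41 in the dark. In light it was 0.216 times its dark value. Its SD on the log2 scale was 0.076 in light and 0.094 in the dark, the smallest of the 6 ratios in both groups. The highest dark ratio is that of dark replicate 2, where PSBW was at the top of the scale, so it is a lower bound. Without that array the dark ratios ran from 3.76 to 4.40 with an SD of 0.095, still the smallest of the 6.

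The ratio of PSAN to PSBW was 0.149 to 0.254 in light and 0.0458 to 0.0833 in the dark, which is 3.40 times higher in light. That of PSBY to PSBW was 0.0713 to 0.0881 in light and 0.0276 to 0.0490 in the dark, 2.26 times higher in light. The ratios of PSBW with each of the other 3 genes thus did not overlap between light and dark. With PSAN and LHB1B2 this outcome was fixed, because their deposited values rose and those of PSBW fell without overlap. Among the 3 genes that rose, the ratio of PSBY to LHB1B2 was 0.0656 to 0.0780 in light and 0.120 to 0.195 in the dark, again without overlap as deposited. After quantile normalization this ratio was 0.0790 to 0.112 in light and 0.0866 to 0.164 in the dark, so that the groups overlapped. The 3 ratios that involve PSBW had no overlap after quantile normalization either. The lack of overlap of each gene after that normalization already fixed this, so it adds no support. PSAN to PSBY (2.09 to 3.08 in light, 1.35 to 2.50 in the dark) and PSAN to LHB1B2 (0.137 to 0.223 in light, 0.200 to 0.344 in the dark) overlapped.

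**Figure D3:**
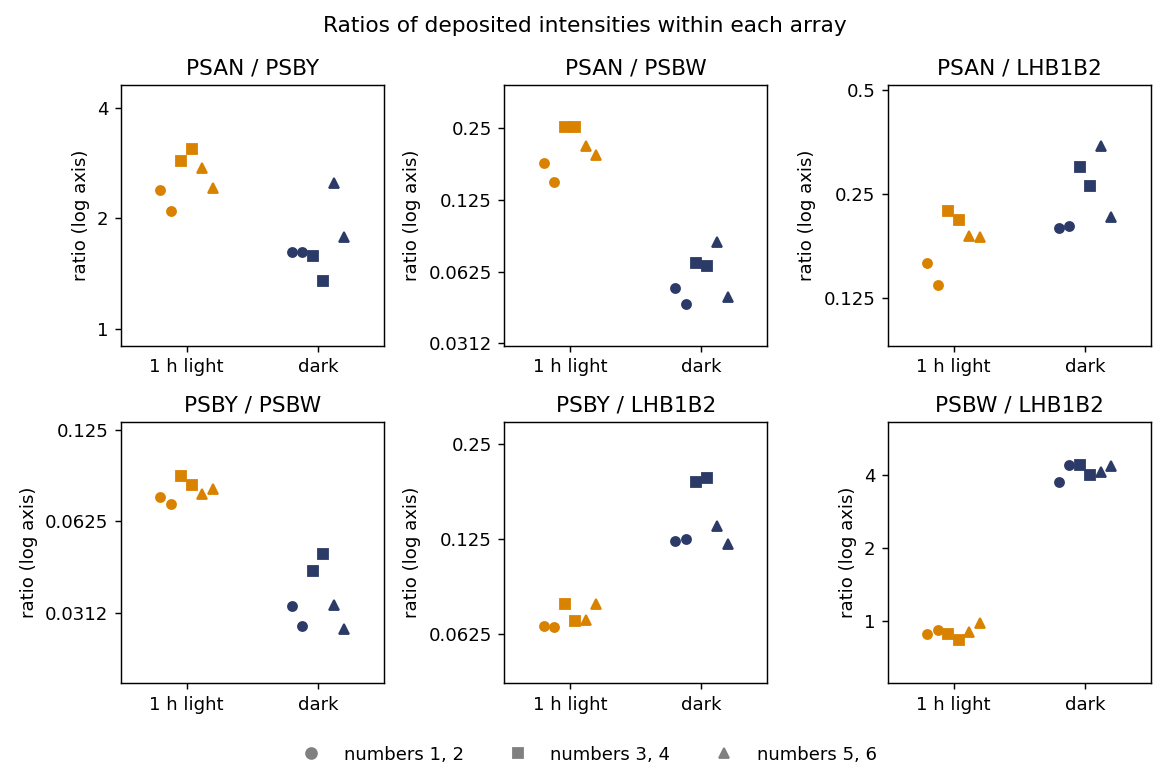
Ratios of deposited intensities within each array on a log axis, light left of dark, for the 6 pairs of genes. Each point is an array and symbols mark consecutive replicate numbers. The PSBW to LHB1B2 ratio runs from 0.831 to 0.975 in light and from 3.76 to 4.41 in the dark, while the 2 ratios of PSAN to PSBY and to LHB1B2 overlap.

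PSBW and LHB1B2 changed in opposite directions between the conditions but varied together within each. Replicates 1 and 2 had the highest deposited PSBW of their group in light (47.8 and 52.5) and in the dark (87.3 and 100). They also had the highest LHB1B2 in light (54.0 and 57.0) and in the dark (23.2 and 22.7). Deviations from the group means of the normalized log2 values correlated at r = 0.828 (Spearman's rho 0.863) over the 12 arrays. This is a description of arrays that are partly alike in pairs. Light and dark arrays of the same number also shared deviations (r = 0.301 to 0.557 over 1483 probes). The 12 arrays are therefore not 12 separate observations of this likeness. Without replicates 1 and 2 the r was 0.863 over 8 arrays. Whether this reflects the plants or the arrays was not tested. The other 5 pairs of genes had r from -0.265 to 0.217 over both groups. Within the 6 light arrays alone some of them were larger in size, with -0.733 for PSAN and PSBW, -0.665 for PSAN and LHB1B2 and 0.631 for PSBY and PSBW, but in the dark these were 0.065, 0.051 and -0.079. PSBW and LHB1B2 had r = 0.928 in light and 0.834 in the dark.

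**Figure D4:**
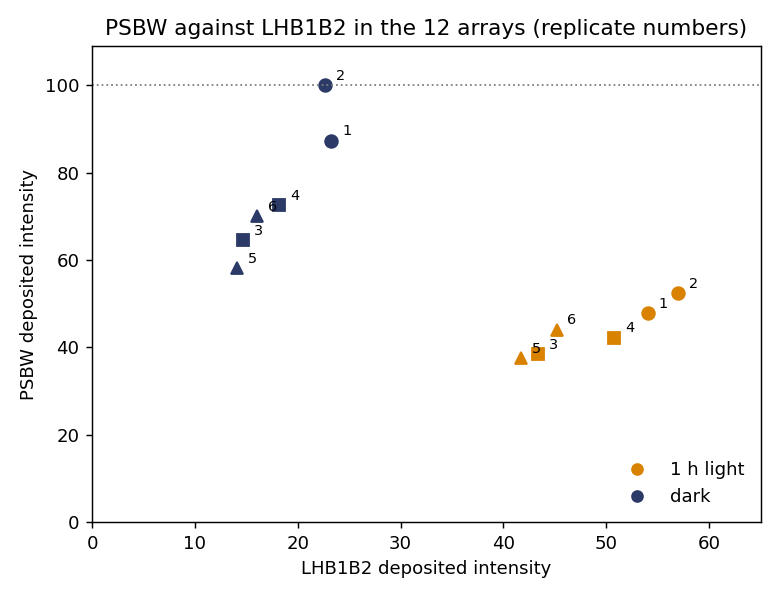
Deposited intensity of PSBW against that of LHB1B2 in the 12 arrays, with replicate numbers beside the points and the top of the scale dotted. Light arrays lie at 41.7 to 57.0 for LHB1B2 and 37.6 to 52.5 for PSBW, dark arrays at 14.1 to 23.2 and 58.1 to 100. Within each condition the arrays high in one gene are high in the other.

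Spread within a condition differed between the genes. For LHB1B2 the highest normalized value was 1.41 times the lowest in light and 1.99 times in the dark. For PSAN the factors were 1.30 in light and 1.43 in the dark. For PSBY they were 1.15 in light and 1.46 in the dark, and for PSBW 1.47 in light and 1.45 in the dark. Most of the spread of LHB1B2 lay between pairs of consecutive numbers, with an SD of pair means of 0.22 in light and 0.37 in the dark on the log2 scale, against 0.078 in light and 0.20 in the dark within pairs. The order was the other way in PSAN in the dark, with 0.12 between pairs and 0.19 within, and in PSBY in light, with 0.043 between and 0.090 within. On pair means LHB1B2, PSBW and PSBY passed with limma adjusted p = 0.016, 0.0074 and 0.0100.

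Other genes of the photosynthetic membrane were few on single-gene probes. Lists of 80 nuclear loci for the photosystems, their assembly, the antennae, LHC-like proteins, electron carriers and the plastid ATP synthase had 6 tested members. After 1 h of light 3 of them were higher, 2 were lower and 1 missed the threshold, where 42.6% of all tested single-gene probes passed in either direction. The median log2 change was 0.45, against -0.01 for all probes tested. Since 4 of the 6 are the genes chosen here, the count and median mostly restate their values.

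The other 2 are in the assembly list. AT1G22700 had a lowest, median and highest normalized intensity of 0.190, 0.483 and 0.650 in light, against 0.618, 0.718 and 0.798 in the dark. The groups overlapped, and it fell by 0.81 on the log2 scale (SE 0.26, limma adjusted p = 0.027). That call was lost without light replicate 6, dark replicate 1 or dark replicate 3 (adjusted p = 0.057, 0.051 and 0.051), without numbers 3 and 4 or 5 and 6 of both groups (adjusted p = 0.12 and 0.13), and with a random block for pairs (adjusted p = 0.068). It was kept under all 5 scalings, with limma adjusted p from 0.0029 (median centring) to 0.029 (cyclic loess). The call was also kept on pair means and with the replicate number as a block (limma adjusted p = 0.020 and 0.028). PSB27, a lumenal factor in the assembly and repair of photosystem II, was at 0.708, 2.31 and 2.59 in light and 0.341, 2.96 and 3.37 in the dark. It did not pass (log2 change 0.01, SE 0.67, limma adjusted p = 0.996), with values spread widely within both groups.

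Probes that list several genes were used where all of them belong to these lists, and they name no single gene. Among 4 such probes, 1 h of light came with higher values in 3, and 1 did not pass, where 19.9% of all probes tested were higher. The probe of 3 LHCII and minor antenna genes had 1.24, 1.51 and 2.05 in light, against 0.212, 0.340 and 0.478 in the dark (log2 change 2.18, SE 0.19, limma adjusted p = 2.5e-06). This is the same direction as LHB1B2 on a probe of other loci. The probe of 2 plastid ATP synthase genes had 1.07, 1.15 and 1.29 in light, against 0.309, 0.351 and 0.426 in the dark (log2 change 1.68). Of the probes for LHC-like proteins, relatives of the antenna proteins that include light-stress proteins, 1 was higher (log2 change 1.73) and 1 did not pass (log2 change 0.03). PSBW and AT1G22700 were thus the 2 of these 10 probes that were lower in light.

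**Figure D5:**
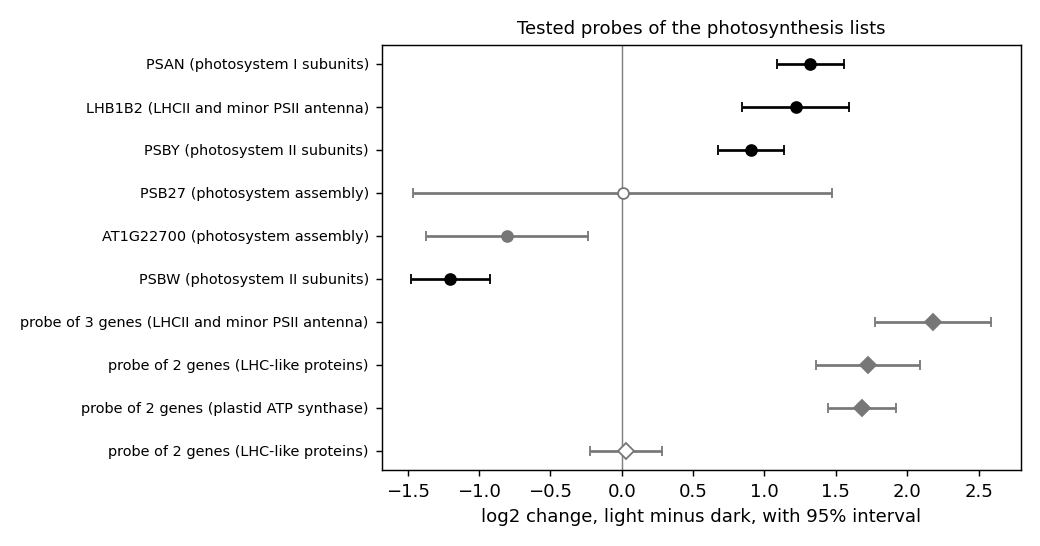
Log2 change, light minus dark, with 95% intervals for the 6 single-gene probes (circles) and 4 probes of several genes (diamonds) from the photosynthesis lists. Black marks PSAN, PSBY, PSBW and LHB1B2, and open symbols did not pass limma at an adjusted p of 0.05. PSBW (-1.20) and AT1G22700 (-0.81) lie below 0, and PSB27 has an interval from -1.46 to 1.47.

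The genes whose pattern was most like each of the 4 were taken as the 3 tested single-gene probes with the highest Pearson correlation of log2 intensity over the 12 arrays, among 597 candidates. Because these arrays form 2 groups, such an r mostly reads the difference between light and dark, and 17 to 25 candidates exceeded 0.9 for each gene. PSAN was followed by AT1G32730 (r = 0.980), AT3G09080 (0.974) and AT3G47650 (0.970), all higher in light. AT1G32730 averaged 4.36 in light and 0.912 in the dark. PSBY was followed by AT1G74070 (0.970), AT3G06570 (0.964) and AT5G14590 (0.964), also higher. AT3G06570, the brightest of these, averaged 7.55 in light and 2.74 in the dark.

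PSBW was followed by AT4G19900 (r = 0.975), AT4G32060 (0.974) and AT-HF (0.961), the histidine synthesis gene also named HISN4, and all 3 were lower in light. AT4G19900 averaged 6.06 in light and 13.2 in the dark. LHB1B2 was followed by AT5G36470 (0.965), PRK (0.959) and AT5G53920 (0.951), all higher in light after quantile normalization. The call for AT5G36470 (log2 change 0.55) was lost as deposited (0.047, limma adjusted p = 0.78) and with median centring (0.16, adjusted p = 0.19). PRK, the phosphoribulokinase of the Calvin cycle, averaged 2.49 in light and 0.592 in the dark.

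When the difference between the groups was removed and deviations from the group means were correlated instead, mostly other genes came first and no r exceeded 0.9. For PSBW they were PRK (r = 0.851), FBL17 (0.844) and LHB1B2 itself (0.828). For LHB1B2 they were AT5G52810 (0.857), CHLM (0.845), the methyltransferase of magnesium protoporphyrin in chlorophyll synthesis, and AT2G01400 (0.841). For PSBY they were Cpn60beta3 (0.851), a plastid chaperonin subunit, AT1G62250 (0.763) and AT1G74070 (0.725), the 1 gene among the first 3 of the same member by both measures. For PSAN the highest were AT2G22050 (0.744), AT1G08845 (0.658) and AT3G56130 (0.658), of which none passed the test between light and dark. Some of these probes were dim. AT2G22050 averaged 0.122 in light and 0.0896 in the dark, AT1G62250 0.152 and 0.0812, and AT2G01400 0.104 and 0.125. The log2 change of AT1G08845 had an SE of 1.15. Each r of PRK, here and with LHB1B2 above, includes light replicate 2, flagged below, where PSBW and LHB1B2 had their highest light values.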

How the data were processed

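The deposited values are intensities on a linear scale, made by the authors in a way (scanning, background subtraction, scaling, genome build) that the labels do not record, and no coordinates are printed. Gene names came from an old platform annotation, updated through gene identifiers in a RefSeq table of assembly TAIR10.1.

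After quantile normalization of the arrays, values under the 1% quantile of positive values were raised to that floor of 0.00675 before log2. A probe was dropped when over 6 of 12 arrays lay at the floor (473 of 3439 probes, none of them a probe of the 4 genes). The fit was limma 3.58.1 (R 4.3.3, lmFit and eBayes, two-sided, Benjamini-Hochberg over 2966 probes, threshold 0.05). It was also run on simulated data with independent noise in each array. That run cannot check the p-values for columns that may be repeat measurements. Figures used matplotlib 3.10.9. Alternatives were other scalings, floors, filters, variance models, array weights, replicate blocks, pair means and leaving out arrays.

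Named were the 4 genes, the tested single-gene probes of the lists, and 3 genes per member by each of 2 correlations. Members and lists were chosen with earlier results of these data known.

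Light and dark samples share replicate numbers. Their deviations from the group means correlated within a number at 0.301 to 0.557 over 1483 probes, and each dark array correlated best with its own number. This pairing comes from the values, not the labels.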

Additional observations from a re-analysis of the deposited data

Results flagged for a closer look

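Among 54 sets of 6 values, for the 27 genes named in light and in the dark, 4 held an array whose gap to its nearest neighbour took up most of the range. Independent normal values would do so in about 1 set in 20, a rate that was not estimated for these sets. On the log2 scale PSAN was at 2.27 in dark replicate 5, against a median of 1.86 in the other dark arrays. Its deposited value there, 4.84, was close to the 4.79 of dark replicate 4, and without that array the log2 change of PSAN was 1.40 (limma adjusted p = 1.3e-06). PRK was at 2.27 in light replicate 2, against a median of 1.03. AT-HF was at -2.23 in light replicate 3, against -1.62. AT1G08845 lay at the floor, at -7.21, in light replicate 2, against -1.62, and it passed without that array (log2 change 3.13, limma adjusted p = 0.014).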

How the results depend on the processing

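PSAN and LHB1B2 kept direction and call in all 32 alternatives each, with log2 changes of 0.99 to 1.40 and 1.10 to 1.81. PSBY kept its call in 29 of 32 and PSBW in 28 of 32, and both kept direction in all. These counts include the permutation test below, whose outcome the lack of overlap fixed. They also include other floors and filters, which left the log2 changes of these bright probes unchanged. The counts therefore overstate how far the calls were put to a test. The exceptions for PSBY were 0.40 as deposited, also on pair means (adjusted p = 0.26), and 0.52 with median centring on pair means. Those for PSBW were -0.40 with the 75th percentile, also on pair means (adjusted p = 0.24), and, on pair means, -0.77 as deposited (adjusted p = 0.051) and -0.66 with median centring. The combinations with pair means were chosen after seeing the data. Leaving out 1 array gave 1.27 to 1.40 for PSAN, 0.85 to 0.96 for PSBY, -1.27 to -1.14 for PSBW and 1.14 to 1.35 for LHB1B2. With the replicate number as a block, adjusted p was 2.8e-04, 7.9e-04, 1.0e-04 and 2.6e-04 for PSAN, PSBY, PSBW and LHB1B2, 1314 probes passed against 1198, and none of the 27 genes named changed its call. An exact two-sided permutation test gave each of the 4 genes p = 0.00216, the smallest that 924 splits allow. The lack of overlap between the groups already fixes that value, and it takes the 12 columns as separate samples, so it adds no support.

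Of the probes called, 49.2% were higher in light, against 32.5% as deposited, 39.1% with median centring and 58.9% with the 75th percentile. On pair means 814 passed. The log2 change in the ratio of a gene to the mean of the other 3, from deposited to quantile-normalized values, was 0.64 and 1.01 for PSAN, -0.15 and 0.46 for PSBY, -1.72 and -2.35 for PSBW, and 1.23 and 0.88 for LHB1B2. Quantile normalization sets each value from its rank in the array, so it does not keep such ratios.

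Among the other 23 genes, sign changes concerned genes that had not passed. PSB27 was at -0.43 as deposited, -0.31 with median centring, -0.058 with the 75th percentile, -0.0021 with array weights, -0.36 without numbers 1 and 2 (where it passed) and -0.44 to 0.25 without 1 array. FBL17 was at -0.027 as deposited, -0.033 without numbers 5 and 6 and -0.082 to 0.14 without 1 array. AT5G52810 was at 0.017 with cyclic loess. AT2G01400 was at -0.063 with the floor at the 5% quantile, -0.24 without numbers 3 and 4 and -0.31 to 0.81 without 1 array. The causes were not tested. Spots at the top of the scale limit the brightest values, which touches PSBW in 1 dark array.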
